A study of Rattus norvegicus with 26 samples.

Results

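A set of 6 miRNAs known from the non-parenchymal cells of the liver was followed through early liver regeneration in the rat: rno-miR-199a-3p, rno-miR-199a-5p, rno-miR-214, rno-miR-143, rno-miR-145 and rno-miR-126. They were chosen by name, with earlier results of these data known, and are 6 of the 677 miRNAs on the array. The prefix rno-, for the rat, is left out from here on. RNA came from the right lobe of 26 male Sprague-Dawley rats, 1 array per rat. The 9 groups were the normal liver of 3 rats without partial hepatectomy (PH), and the right lobe left in place after 1/3 PH (removal of the left lateral lobe) or after 2/3 PH, at 6, 12, 24 and 36 hours. Each operated group had 3 arrays, except 1/3 PH at 6 hours, which had 2. All rats were unmodified, no drug was named in the labels, and age was not given in the sources used here. One label marks the normal rats as sham, so whether they had a mock operation is uncertain. Where a source label gave a time 1 or 2 hours later than the title, the title was followed. The study used 1/3 PH as the control for 2/3 PH at the same time.

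A miRNA is cut from a hairpin in a longer primary transcript, and either arm of the hairpin can become the mature strand, whose seed near the 5′ end pairs with target mRNAs. miR-199a and miR-214 lie close together inside the gene of dynamin 3 and are made from one primary transcript in mesenchymal cells, among them the hepatic stellate cells that store vitamin A and lay down matrix when activated. miR-143 and miR-145 are neighbours that are made mainly in smooth muscle cells and other contractile mesenchymal cells. miR-126 lies in an intron of Egfl7, a gene of endothelial cells, and is the best known endothelial miRNA. After 2/3 PH hepatocytes divide first, and the stellate and endothelial cells follow.

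The mature sequences are shown because the array probes were made against them and because they separate the 6 miRNAs. They were taken from RefSeq (build GRCr8), all 6 were matched by name, and the seed, bases 2 to 8 from the 5′ end, is in capitals.
miR-199a-3p: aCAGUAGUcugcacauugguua
miR-199a-5p: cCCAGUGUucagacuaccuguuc
miR-214: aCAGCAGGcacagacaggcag
miR-143: uGAGAUGAagcacuguagcuca
miR-145: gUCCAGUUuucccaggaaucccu
miR-126: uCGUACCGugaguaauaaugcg
No seed was shared, and there were 6 distinct seeds. RefSeq calls the array's miR-214, miR-143, miR-145 and miR-126 by the names miR-214-3p, miR-143-3p, miR-145-5p and miR-126a-3p. Both strands of miR-199a lie in Mir199a2, on the plus strand of chromosome 13 at chr13:77116294-77116315 (miR-199a-3p) and chr13:77116255-77116277 (miR-199a-5p), and miR-214 lies on the same strand at chr13:77121713-77121733. The hairpins of Mir199a2 and Mir214 are 5310 bases apart, and both overlap the gene Dnm3. miR-143 lies at chr18:57371373-57371394 and miR-145 at chr18:57370033-57370055, both on the minus strand and both overlapping Carmn, with 1278 bases between the hairpins. miR-126 lies at chr3:29813219-29813240 on the plus strand and overlaps Egfl7, in the gene that RefSeq now names Mir126b and lists under the older name Mir126. All coordinates are those of GRCr8. In this table the 6 miRNAs lie at 3 places: the miR-199a and miR-214 pair of hairpins, the miR-143 and miR-145 pair, and miR-126. An array reads the mature strand and does not show which copy of a gene made it.

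The arrays were comparable in brightness, except one. The summed signal of all miRNAs was 17273.2 signal units on the array of rat m5m, at 12 hours after 1/3 PH, and 57382.5 to 93759.9 on the other arrays. The scanner software detected 91 miRNAs on m5m and 118 to 155 on the others. For several levels, changes and correlations that m5m moved, the value without it is given too, but not for ratios between miRNAs. The hepatocyte miRNAs miR-122 and miR-192 together gave 32300 to 44800 normalised signal units, as a liver sample would, and the striated muscle miRNAs miR-1, miR-133a and miR-206 were detected on no array. Slides numbered 6 and scan days 3. A single slide carried every array of 2/3 PH at 24 hours and of 1/3 PH at 36 hours, and at 36 hours the operations were never scanned on the same day. Precision is limited by the small number of arrays. In RNA from a whole lobe, fewer cells of a type and less of a miRNA in each cell cannot be told apart.

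The liver gave a signal for 5 of the 6 miRNAs. miR-199a-3p, miR-214, miR-143 and miR-126 were detected on all 26 arrays, as were 82 of the 677 miRNAs. miR-199a-5p was detected on 23 arrays, and miR-145 on none. A probe well above background was found on 24 arrays for miR-214, 16 for miR-199a-5p and all 26 for miR-199a-3p, miR-143 and miR-126. Signals are given in normalised signal units, the background-subtracted fluorescence summed over the 2 probes of a miRNA after the arrays were scaled to each other. A signal below the dimmest probe that stood well above background on the same array was set to that floor. Signals of different miRNAs come from different probes, so only changes, not levels, are compared between miRNAs.

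miR-145, known for keeping smooth muscle cells in their contractile state, had signals of -10.0 to 1.9 units with a median of -1.43 units. The floor lay between 6.36 and 24.3 units, or up to 20.2 units without m5m. Its signal was thus below the floor on every array, and only a bound can be given. No test was made, and 5 of the 6 miRNAs were among the 144 miRNAs tested. The other strands of these hairpins were also weak. miR-214*, miR-143* and miR-145* were detected on no array. miR-126* was detected on 3 arrays, of which 2 were normal livers and 1 was at 24 hours after 1/3 PH.

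miR-199a-3p, a repressor of Mtor and Met, varied more between rats of one group than between groups. Its signal was 64, 63.4 and 53.4 units in the normal livers. After 1/3 PH it was 66.0 and 53.9 units at 6 hours, 90.6, 58.0 and 49.2 at 12 hours, 55.6, 73.2 and 117 at 24 hours, and 77.9, 80.0 and 61.7 at 36 hours. After 2/3 PH it was 65.6, 63.8 and 64.4 units at 6 hours, 59.4, 77.4 and 51.2 at 12 hours, 112, 68.8 and 69.8 at 24 hours, and 71.8, 53.4 and 58.6 at 36 hours. The 2 highest arrays belonged to different operations, rat m24 at 24 hours after 1/3 PH and rat m26 at 24 hours after 2/3 PH, and the next, rat m2, was at 12 hours after 1/3 PH. At 24 hours after 2/3 PH all 3 arrays were above all 3 normal livers, but the change, a log2 of 0.44 with an SE of 0.255, did not pass the threshold (limma, adjusted p = 0.351). Non-overlap of this kind was common there, at 34% of the 144 miRNAs in this comparison. From the lowest group, 6 hours after 1/3 PH at 5.90, to the highest, 24 hours after 2/3 PH at 6.35, the group means spanned 0.45 on the log2 scale, and no step between neighbours in that order was over 0.17. The SD between rats of one group was 0.322.

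miR-214, which is made beside miR-199a, followed a similar course. The normal livers gave 26.5, 21.8 and 19.0 units. After 1/3 PH the signal was 25.3 and 23.7 units at 6 hours, 38.1, 24.6 and 23.6 at 12 hours, 21.0, 32.9 and 42.9 at 24 hours, and 29.2, 28.7 and 19.8 at 36 hours. After 2/3 PH it was 29, 26.7 and 27.9 units at 6 hours, 23.8, 33.0 and 25.4 at 12 hours, 38.1, 23.6 and 36.6 at 24 hours, and 30.3, 20.5 and 23.5 at 36 hours. The lowest group mean was that of normal liver, 4.47 on the log2 scale, and the highest that of 24 hours after 2/3 PH, 5.0. All 8 operated groups had a mean above normal liver, by a log2 of 0.14 to 0.53, but the same 3 normal livers stand in all 8 comparisons. The largest of these changes, at 24 hours after 2/3 PH, had an SE of 0.254 and did not pass the threshold (limma, adjusted p = 0.208). At 6 hours after 2/3 PH all 3 arrays were above the normal livers and above both arrays of 1/3 PH. In those comparisons 19.4% and 18.1% of the 144 miRNAs did not overlap either. The log2 change was 0.33 with an SE of 0.254 against normal liver (limma, adjusted p = 0.703) and 0.19 with an SE of 0.284 against 1/3 PH (adjusted p = 0.946).

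miR-199a-5p, the opposite arm of the miR-199a hairpin, stood close to the floor and is the least certain of the 5. Its signal before the floor ranged from 9.45 to 28.1 units with a median of 13.0, and it lay below the array's floor on 7 arrays, including both at 6 hours after 1/3 PH. The normal livers gave 11.1, 16.0 and 9.79 units. At 24 hours after 1/3 PH the signals were 11.4, 18.4 and 28.1 units, and the first of these was raised to its floor. The log2 change was 0.67 with an SE of 0.296 and a 95% interval of 0.05 to 1.29. Of the changes from normal liver this one alone had an unadjusted p below 0.05. It was lost after adjustment over the 144 miRNAs (limma, adjusted p = 0.342). The change was 0.39 without m24 (adjusted p = 0.634), 0.42 with quantile normalization (adjusted p = 0.888), 0.08 after normexp background correction (adjusted p = 0.998) and 1.45 with the deposited log2 values. None of these passed the threshold, the larger value with the deposited log2 values included. At 12 hours after 1/3 PH the log2 change of 0.60 (adjusted p = 0.192) rested in part on the dim array m5m, whose signal of 17.4 units lay under its floor of 24.3, and was 0.40 without m5m (adjusted p = 0.473). Its sign was not stable, at -0.15 without scaling, -0.45 with the 75th percentile over all probes, -1.67 with the deposited log2 values and 0.04 with quantile normalization.

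miR-143, known from smooth muscle, was steadier. The normal livers gave 252, 196 and 193 units. After 1/3 PH the signal was 189 and 203 units at 6 hours, 224, 191 and 190 at 12 hours, 211, 232 and 285 at 24 hours, and 208, 261 and 192 at 36 hours. The values after 2/3 PH were 225, 180 and 199 units at 6 hours, 212, 217 and 219 at 12 hours, 276, 228 and 171 at 24 hours, and 173, 215 and 180 at 36 hours. Every operated group overlapped normal liver. The group means ran from 7.56 at 36 hours after 2/3 PH to 7.91 at 24 hours after 1/3 PH on the log2 scale, with no step over 0.12. Of the 8 operated groups 4 had a mean above and 4 below normal liver, and the 95% intervals of all 8 changes lay between -0.52 and 0.53.

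miR-126, which sustains VEGF signalling in endothelial cells, was the most even of the 5. The normal livers gave 683, 554 and 567 units. After 1/3 PH the signal was 564 and 603 units at 6 hours, 589, 352 and 608 at 12 hours, 605, 633 and 572 at 24 hours, and 582, 686 and 550 at 36 hours. The values after 2/3 PH were 616, 524 and 556 units at 6 hours, 558, 589 and 578 at 12 hours, 577, 558 and 512 at 24 hours, and 482, 494 and 543 at 36 hours. The lowest value, 352 units, was that of the dim array m5m, and it set the lowest group mean, 8.97 on the log2 scale at 12 hours after 1/3 PH, which was 9.22 without it. The lowest group was then 36 hours after 2/3 PH, at 8.98. The 8 changes from normal liver lay between -0.26 and 0.01, with 95% intervals from -0.58 to 0.34. The lowest of these, at 12 hours after 1/3 PH, was 0.00 without m5m (limma, adjusted p = 0.999), and the 8 changes then lay between -0.24 and 0.01.

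With m5m set aside, the 2 lowest signals of miR-126 were both at 36 hours after 2/3 PH. At 36 hours all 3 arrays of 2/3 PH were below all 3 normal livers and all 3 arrays of 1/3 PH. At this time 43.8% of the 144 miRNAs did not overlap with normal liver and 36.1% did not overlap between the operations. miR-126 missed the threshold in both, with a log2 change of -0.24 and an SE of 0.156 against normal liver (limma, adjusted p = 0.30) and of -0.26 and an SE of 0.156 against 1/3 PH (adjusted p = 0.407). Both SE include the dim array m5m, since all arrays were in the same fit. The SD of miR-126 was 0.44 at 12 hours after 1/3 PH, the group of m5m, and 0.04 to 0.17 in the others. With scan day as a block the changes were -0.14 (adjusted p = 0.524) and 0.03 (adjusted p = 0.946), so the second took the opposite sign. Within the second scan day the normal liver gave 567 units and the 2 arrays of 36 hours after 2/3 PH 482 and 494 units. Within the third scan day the values were 554 and 543 units, 1 array each. Operation and scan day cannot be told apart at 36 hours for the comparison with 1/3 PH.

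**Figure D1:**
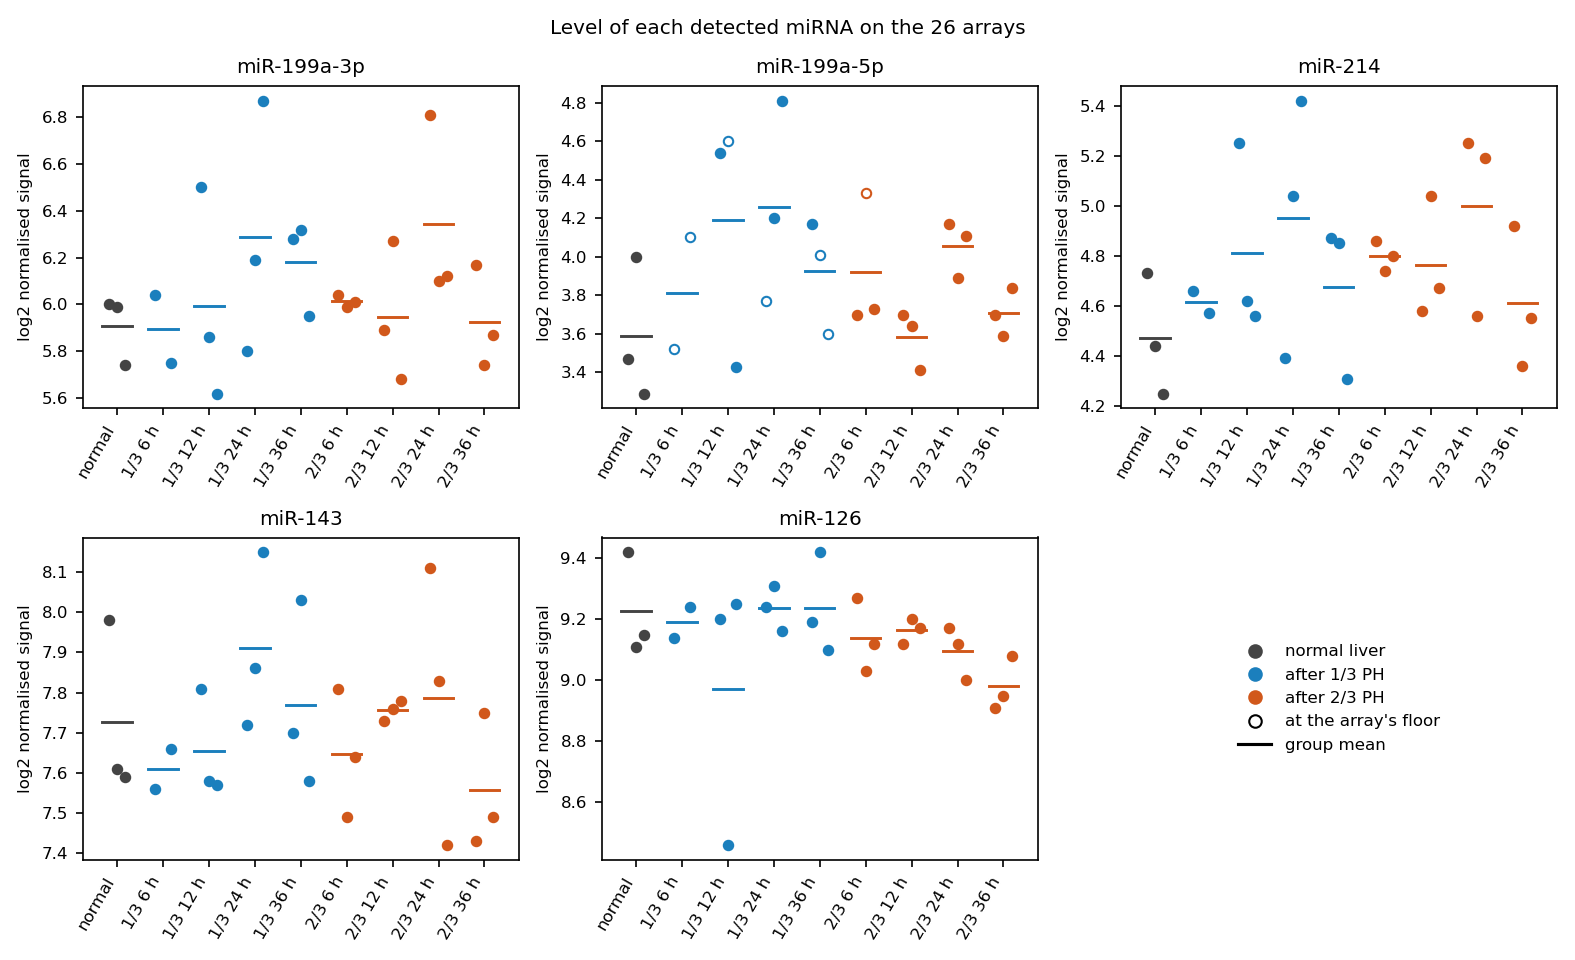
Log2 normalised signal of each detected miRNA (y axis, with a range of its own in each panel) in the 9 groups (x axis, operation and hours after PH). Each point is 1 rat, open points were raised to the floor of their array and bars are group means; the points of most groups spread over those of the other groups, and the single low point of miR-126, at 8.46, is the dim array m5m.

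None of the 5 miRNAs was called in any comparison (limma in 1 fit of all arrays, Benjamini-Hochberg adjusted p below 0.05 over 144 miRNAs). Against normal liver 0 of 5 were called after 1/3 PH, where 0%, 4.17%, 0.694% and 0% of all miRNAs tested were called at the 4 times in order. After 2/3 PH the same count of 0 of 5 stood beside 0%, 6.94%, 18.1% and 18.8%. Between the operations 0 of 5 were called at the 4 times, beside 0%, 0%, 2.78% and 15.3%. With 24 and 36 hours set against 6 and 12 hours, 0 of 5 were called after 1/3 PH (9.72% of all), after 2/3 PH (34.7% of all) and in the interaction of time and operation (6.94% of all). Over the 4 times together 0 of 5 differed from normal liver after 1/3 PH (0% of all) or after 2/3 PH (11.1% of all), or between the operations (3.47% of all). The F test of any difference among the 9 groups called 0 of 5 and 29.9% of all, with adjusted p of 0.447 for miR-199a-5p, 0.705 for miR-199a-3p, miR-214 and miR-126, and 0.736 for miR-143. At an unadjusted p below 0.05 the 18 contrasts and the F test together gave 1 value of these 5 miRNAs, that of miR-199a-5p above.

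Counts of groups that did not overlap are set beside the share of all 144 miRNAs. Against normal liver 0 of 5 did not overlap at any time after 1/3 PH, where the share of all miRNAs was 20.8%, 28.5%, 13.2% and 18.8% in order of time. After 2/3 PH the counts were 1 of 5 at 6 hours (miR-214; 19.4% of all), 0 at 12 hours (23.6%), 1 at 24 hours (miR-199a-3p; 34%) and 1 at 36 hours (miR-126; 43.8%). Between the operations they were 1 of 5 at 6 hours (miR-214; 18.1% of all), 0 at 12 hours (6.94%), 0 at 24 hours (15.3%) and 1 at 36 hours (miR-126; 36.1%).

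These tests leave room for moderate changes, and the room differs between the miRNAs. Over the 8 comparisons with normal liver the 95% intervals reached from -0.61 to 0.97 on the log2 scale for miR-199a-3p, from -0.63 to 1.29 for miR-199a-5p and from -0.45 to 1.06 for miR-214. Those of miR-143 and miR-126 were narrower, as given above. Between the operations at the same time the changes lay between -0.26 and 0.12 for miR-199a-3p, -0.61 and 0.11 for miR-199a-5p, -0.06 and 0.19 for miR-214, -0.21 and 0.10 for miR-143, and -0.26 and 0.20 for miR-126. Without m5m the lower end became -0.40 for miR-199a-5p and -0.14 for miR-214, and the upper end 0.07 for miR-143 and -0.05 for miR-126. The smallest adjusted p among these was 0.407. The median absolute log2 change of the 5 miRNAs from normal liver was 0.14 over 40 values, and that of all 144 miRNAs was 0.23.

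**Figure D2:**
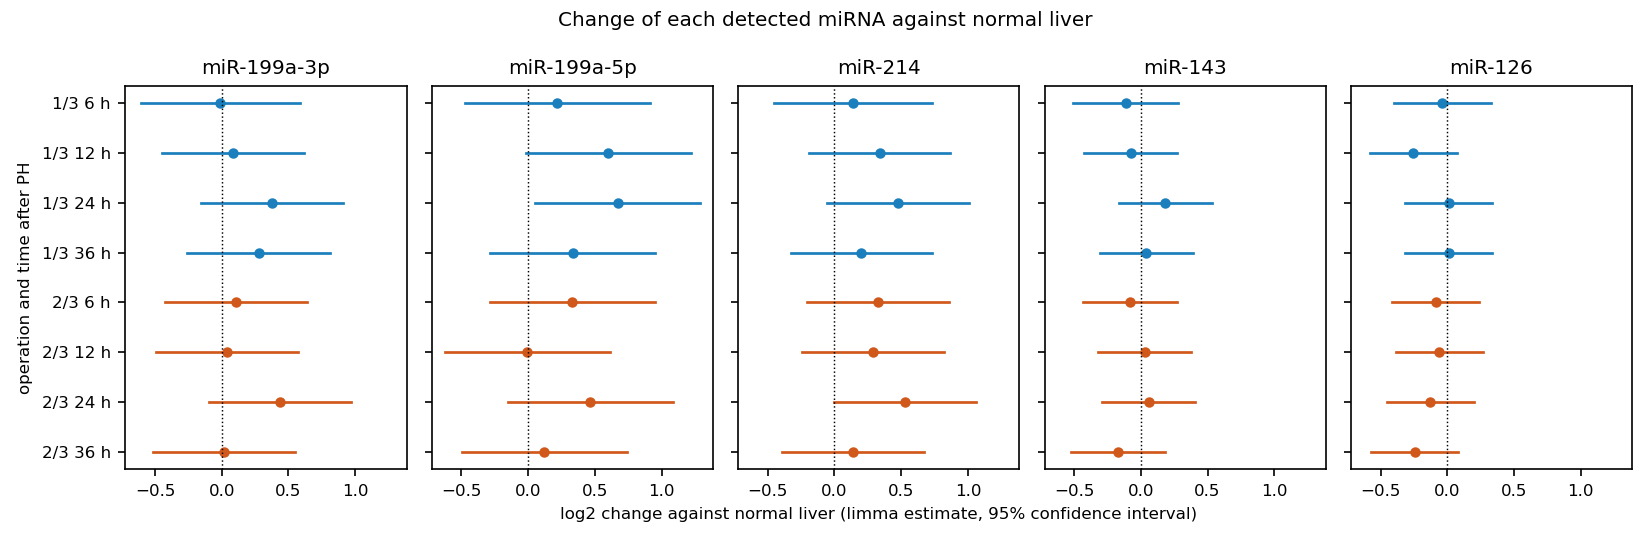
Log2 change of each detected miRNA against normal liver (x axis) for the 8 operated groups (y axis), with 1/3 PH in blue and 2/3 PH in orange. Points are limma estimates and lines their 95% confidence intervals; of the 40 intervals, that of miR-199a-5p at 24 hours after 1/3 PH is the one that leaves out 0.

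Arrays of one group differed by more than the error of reading their spots. The SD between rats given here also holds labelling, hybridisation, slide and scan day, which cannot be told apart from the rat with 1 array each. Each miRNA was read by 2 probes of 10 spots each, and a few spots that the software had marked were left out. The standard error from the spots was taken for the brighter of the 2 probes, as a share of that probe's signal, and leaves out the dimmer probe. Its median was 2.39% for miR-199a-3p, 3.89% for miR-214, 2.07% for miR-143 and 1.68% for miR-126. The SD between rats of one group was 25.0%, 24.9%, 14.9% and 13.7% for the same miRNAs. For miR-199a-5p these were 7.7% and 29.8%. On the log2 scale the SD between rats was 0.322 for miR-199a-3p, 0.376 for miR-199a-5p, 0.32 for miR-214, 0.201 for miR-143 and 0.185 for miR-126, against a median of 0.284 for the 144 miRNAs. The SD of miR-126 includes the dim array m5m, and was 0.44 in the group of m5m and 0.04 to 0.17 in the others. The 2 probes of one miRNA followed each other over the 26 arrays, with Pearson r of 0.81 for miR-199a-3p, 0.70 for miR-214, 0.90 for miR-143, 0.91 for miR-126 and 0.47 for miR-199a-5p, whose second probe gave -1.83 to 2.74 units. The probes of a miRNA share the RNA, the labelling and the array, so these r leave out the error of those steps.

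miR-199a-3p and miR-214, which share no seed and were read by different probes, went up and down together from rat to rat. Over the 26 arrays their Pearson r was 0.84 (permutation p = 1e-05, the smallest that 100000 permutations can give, adjusted p = 0.0001 over 10 pairs) and Spearman rho was 0.83 (permutation p = 1e-05, adjusted p = 0.0001). Without m24 and m26, the 2 arrays farthest from the median of miR-199a-3p, r was 0.77, and with the group means removed it was 0.86. Within the first scan day r was 0.79 over 17 arrays, and within the third 0.90 over 6 arrays. Among the 81 other miRNAs detected on all arrays, miR-214 had the highest r with miR-199a-3p, and miR-199a-3p had the highest r with miR-214. The median r of miR-199a-3p with these 81 was -0.03. The 3 rats that were highest for miR-199a-3p, m24, m26 and m2, were also the 3 highest for miR-214, with 42.9, 38.1 and 38.1 units.

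miR-199a-5p followed the same pair more loosely. Its r was 0.62 with miR-199a-3p (permutation p = 0.00081, adjusted p = 0.00345, rho = 0.56, adjusted p = 0.0109) and 0.60 with miR-214 (permutation p = 0.00138, adjusted p = 0.00345, rho = 0.53, adjusted p = 0.0132). Without the 2 farthest arrays these were 0.48 and 0.58, and without m5m alone 0.72 and 0.68. Within the first scan day they were 0.55 and 0.58 over 17 arrays, and within the third 0.72 and 0.57 over 6 arrays. miR-199a-5p was above its floor on 19 arrays, and values at the floor have no order.

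miR-143 was tied less firmly to the miR-199a and miR-214 pair. Its r with miR-199a-3p was 0.61 (permutation p = 0.0011, adjusted p = 0.00345), but rho was 0.42 (permutation p = 0.0321, adjusted p = 0.0642) and without m24 and m26 r was 0.28. The relation thus rested on those 2 rats, which were also the 2 highest for miR-143, with 285 and 276 units. With miR-214 r was 0.44 (permutation p = 0.0251, adjusted p = 0.0418, rho = 0.35, adjusted p = 0.135), and 0.27 without m24 and m2. With 1 rat left out it was 0.30 without m24, 0.35 without m26 and 0.43 without m2. It thus leaned on m24 and m26 more than on m2. Within the first scan day r with miR-199a-3p was 0.58 and with miR-214 0.31, over 17 arrays, and within the third 0.83 and 0.91 over 6 arrays.

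miR-126 showed no relation past the threshold to the miR-199a and miR-214 pair. Its r was 0.17 with miR-199a-3p (permutation p = 0.386, adjusted p = 0.429, rho = 0.18, adjusted p = 0.485), 0.13 with miR-214 (permutation p = 0.528, adjusted p = 0.528, rho = 0.22, adjusted p = 0.394) and -0.28 with miR-199a-5p (permutation p = 0.171, adjusted p = 0.245, rho = -0.10, adjusted p = 0.639). Without the 2 farthest arrays these were 0.20, 0.12 and 0.01, without m5m alone 0.11, 0.11 and 0.00, and within the first scan day 0.02, 0.00 and -0.21. The rats m24 and m26 had 572 and 577 units of miR-126, near its median of 569. With miR-143, r was 0.50 (permutation p = 0.00971, adjusted p = 0.0194, rho = 0.63, adjusted p = 0.00345), and it was 0.60 without m24 and m26, 0.60 without m5m, 0.69 within the first scan day and 0.35 within the third. Whether the r of miR-143 with miR-126 differed from that with miR-199a-3p was not tested. The remaining pair, miR-199a-5p and miR-143, had an r of 0.26 (permutation p = 0.197, adjusted p = 0.246, rho = 0.15, adjusted p = 0.518), 0.13 without the 2 farthest arrays and 0.09 within the first scan day. It passed the threshold without scaling, with the 75th percentile over all probes and after normexp correction, with r up to 0.86. In single contrasts these settings moved the median of all 144 miRNAs as far as -0.65, -1.32 and 0.63 in turn. A shift shared by the miRNAs of an array can move the r of any pair, and its part was not tested.

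**Figure D3:**
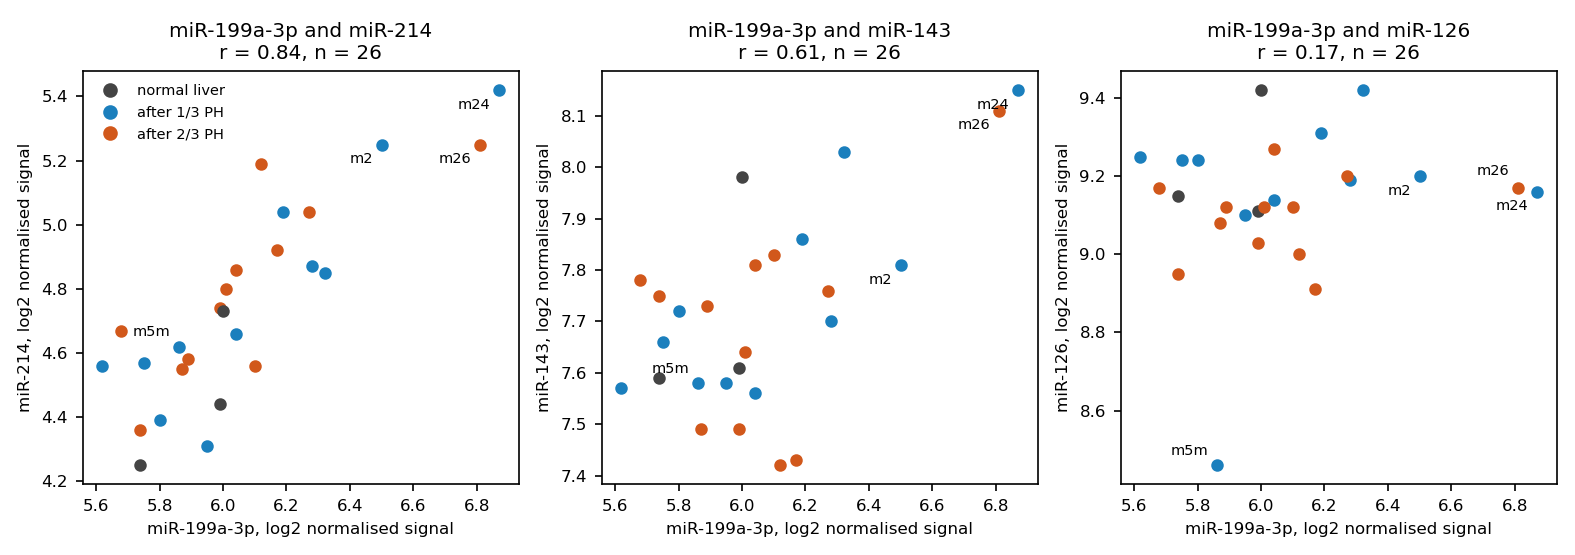
Log2 normalised signal of miR-199a-3p (x axis) against that of miR-214, miR-143 and miR-126 (y axes) on the 26 arrays. Each point is 1 rat, in grey for normal liver, blue after 1/3 PH and orange after 2/3 PH; the points of miR-214 lie along a line (r = 0.84), those of miR-143 do so mainly through m24 and m26 (r = 0.61), and those of miR-126 do not (r = 0.17).

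The miRNAs most like each of these were sought among those detected on all 26 arrays. After miR-214 and miR-143, miR-199a-3p was followed by miR-24 (r = 0.49), miR-451 (r = 0.42), a miRNA of red cells, and let-7i (r = 0.40), and the r of miR-451 was 0.19 without m24. miR-126 was most like miR-103 (r = 0.88), miR-29a (r = 0.76), a repressor of collagens, and miR-99a (r = 0.69). The dim array m5m, low for miR-126, carried part of this likeness: without it the 3 values were 0.67, 0.39 and 0.57, and miR-103 was still the first of 81. For miR-143, added after its values were seen, the nearest were miR-24 (r = 0.69), miR-199a-3p and miR-27b (r = 0.59). miR-24 thus stood near all 3, since its r with miR-126 was also 0.69, and 0.66 without m5m. These r are descriptions over arrays that share one scaling.

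The groups of miRNAs are described by their mean change from normal liver, with miR-199a-5p kept apart at first because of its floor. The mean of miR-199a-3p and miR-214 lay a log2 of 0.24 ± 0.30 (SD, n = 23) above the normal livers over all remnant livers, from -0.14 to 0.95. It was 0.43 ± 0.52 (SD, n = 3) at 24 hours after 1/3 PH, and 0.16 without m24. At 24 hours after 2/3 PH it was 0.48 ± 0.35 (SD, n = 3), and 0.30 without m26. At 12 hours after 1/3 PH it was 0.21 ± 0.42 (SD, n = 3), and -0.03 without m2, so that single rats made much of these means. In the other groups it lay between 0.06 and 0.24. With miR-199a-5p included, the means were 0.34 at 12 hours and 0.51 at 24 hours after 1/3 PH, and 0.25 at 6 hours and 0.48 at 24 hours after 2/3 PH. miR-143 lay at -0.01 ± 0.20 (SD, n = 23) and miR-126 at -0.10 ± 0.18 (SD, n = 23). These means describe the arrays and carry no test.

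Within an array the ratio of one miRNA to another does not depend on the scale factor, and 10 pairs were compared. All 10 comparisons include the dim array m5m, and their values without it were not computed. On m5m miR-126 was low, at 352 units, and miR-199a-5p was raised to the floor. miR-214, at 24.6 units, stood just above that floor of 24.3. The ratio of miR-214 to miR-126 was higher in the 23 remnant livers than in the 3 normal livers by a log2 of 0.41 (exact permutation test, two-sided, p = 0.0192, adjusted p = 0.192), and that of miR-214 to miR-143 by 0.32 (exact permutation p = 0.0446, adjusted p = 0.223). Neither passed the adjustment over the 10 pairs. Each of these ranges still overlapped, with -4.90 to -4.67 in normal and -4.85 to -3.74 in remnant livers for miR-214 to miR-126. The ratio of miR-199a-3p to miR-214 differed by -0.14 (exact permutation p = 0.202, adjusted p = 0.337), and that of miR-143 to miR-126 by 0.09 (exact permutation p = 0.495, adjusted p = 0.55). Between the 12 arrays of 2/3 PH and the 11 of 1/3 PH the smallest p was that of miR-199a-5p to miR-214, at a log2 difference of -0.27 (permutation p = 0.041, adjusted p = 0.41). miR-199a-5p was raised to the floor on arrays of 1/3 PH at every time, but after 2/3 PH only on 1 array, at 6 hours. Raising to the floor makes this ratio higher, and its part in the difference was not tested.

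**Figure D4:**
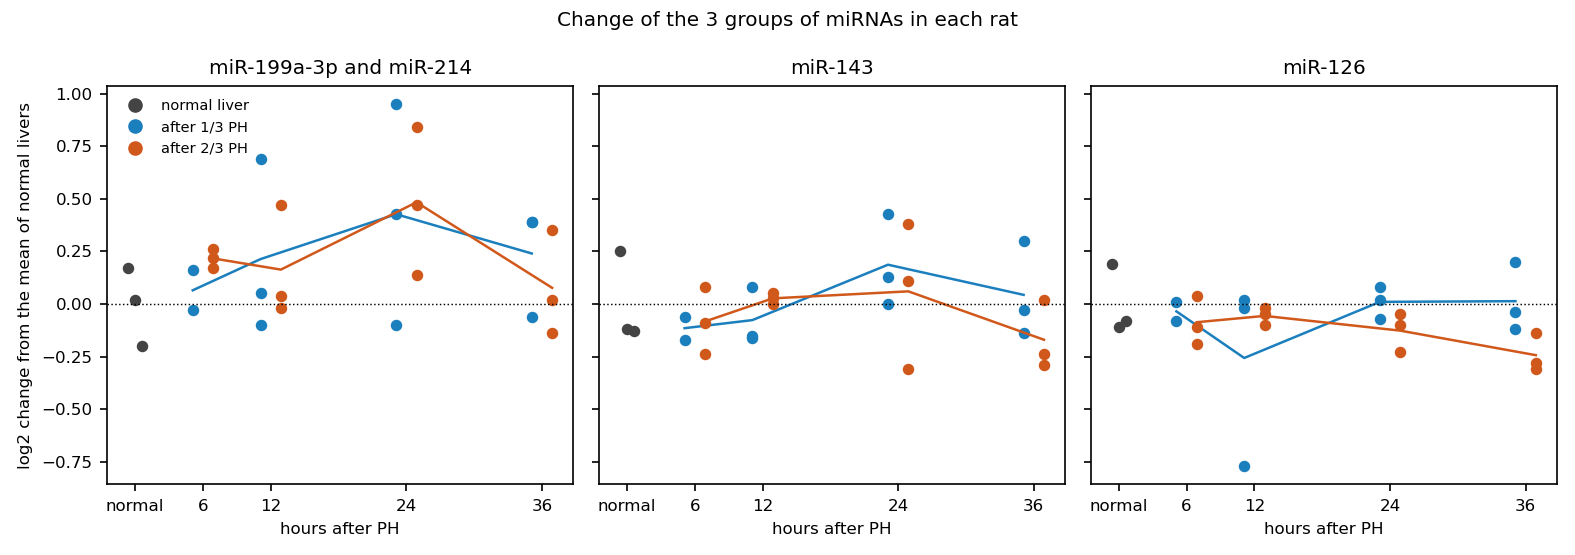
Log2 change from the mean of the normal livers (y axis) against hours after PH (x axis) for the mean of miR-199a-3p and miR-214, for miR-143 and for miR-126. Points are rats, in grey for normal liver, blue for 1/3 PH and orange for 2/3 PH, and lines join group means. miR-199a-3p and miR-214 reach 0.95 in m24, while miR-143 stays between -0.31 and 0.43. miR-126, m5m apart at -0.77, stays between -0.31 and 0.20, and at 36 hours after 2/3 PH it lies between -0.31 and -0.14.

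A wider list of miRNAs enriched in mesenchymal cells gave no call either. Of 17 listed, 16 were on the array, 5 were detected on at least 1 array and 5 were tested: miR-152, miR-140, miR-140*, miR-335 and miR-31. In the 18 contrasts 0 of these were called, beside 0% to 34.7% of all 144 miRNAs. miR-127, miR-379, miR-411, miR-434, miR-382, miR-376a and miR-376c, of the large imprinted cluster of embryonic and mesenchymal cells, were detected on no array, nor was miR-218. The summed signal of the 5 tested was 155 to 179 units in normal liver and 146 to 201 units in the remnant livers. Their r with miR-199a-3p, where they were detected on all arrays, was 0.30 for miR-140, 0.23 for miR-140* and 0.12 for miR-31.

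Markers of other cells were measured on the same arrays. The summed hepatocyte miRNAs were 35000 to 41800 units in normal liver and 32900 to 42100 at 24 hours after 1/3 PH. miR-192 was called lower in 3 contrasts and higher in 1, where 4.17% to 18.1% of all 144 miRNAs were called. The 4 leukocyte miRNAs that were tested, of 6 listed, gave 7 calls, all lower and all after 2/3 PH. In those contrasts 11.1% to 34.7% of all 144 miRNAs were called, and miR-223 had no call. The 4 summed to 209 to 257 units in normal liver and 151 to 188 at 24 hours after 2/3 PH. The 3 biliary and epithelial miRNAs that were tested, of 5 listed, gave 13 calls, all higher. These fell in contrasts that share arrays and in which 4.17% to 34.7% of all 144 miRNAs were called. The 3 summed to 34.4 to 65.3 units in normal liver and 96.1 to 146 at 36 hours after 2/3 PH. miR-200c and miR-141 of that list and miR-142-5p of the leukocyte list were detected on no array. The red cell miRNAs summed to 98.0 to 121 units in normal liver and 139 to 314 at 24 hours after 1/3 PH, the group of m24, with 0 calls. None of 28 relations of miR-199a-3p, miR-214, miR-143 and miR-126 to these markers passed the adjustment. The smallest p was that of miR-143 to the red cell miRNA miR-451, with an r of 0.53 (permutation p = 0.00523, adjusted p = 0.146, rho = 0.51, adjusted p = 0.199), which was 0.51 without the 2 farthest arrays and 0.35 within the first scan day. That of miR-199a-3p to miR-122 had an r of -0.49 (permutation p = 0.0105, adjusted p = 0.147, rho = -0.25, adjusted p = 0.783) over 26 arrays, and 0.00 without the 2 arrays farthest from the median of miR-122. The part of these cells in the levels above was not tested.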

How the data were processed

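Total RNA was labelled with Cy3 and hybridised to rat miRNA arrays. The authors read spots with Agilent Feature Extraction 10.7.3.1, and the intensity deposited per spot is background-subtracted and not normalised between arrays. Deposited log2 values (699 rows, column medians -3.32 to -2.85, how they were scaled not given in the sources used here) served as an alternative.

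Unmarked spots were averaged per probe and probes summed per miRNA (677 miRNAs, 1644 probes, 13540 spots). Scaling used the 75th percentile of 109 probes well above background on all arrays, and signals were floored as described and log2-transformed. A miRNA was tested if the software detected it throughout at least 1 group, which left 144, tested with limma 3.58.1 (R 4.3.3; lmFit, eBayes; residual df 17, prior df 2.32). In a test on simulated data (30 of 144 miRNAs moved by log2 1 at 36 hours after 2/3 PH) 75.3% were recovered, and 5.28% of calls were false. The simulated noise was normal and independent between miRNAs and arrays, with no slide effect and no floor. The added change was above the largest change from normal liver of the 5 miRNAs, 0.67, so the share recovered does not hold for such smaller changes. Correlations used 100000 permutations (Python 3.11.15, numpy 2.4.6, scipy 1.17.1), two-sided. p-values measure the spread between arrays of 1 rat each, which also holds labelling, hybridisation, slide and scan day.

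The 6 miRNAs and all lists were chosen with earlier results of these data known. Other miRNAs are named as other strands, as marker lists, or as the 3 with the highest r to miR-199a-3p and miR-126; those nearest to miR-143 were added after its values were seen. The same rule for miR-145, and its 5 pairs, gave nothing since it was not detected. Alternatives were other scalings, background correction, probe summaries, floors and filters, slide or scan day as a block, and each array left out.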

Additional observations from a re-analysis of the deposited data

How the results depend on the processing

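The count of 0 calls in the 5 families of tests (against normal liver, between the operations, late against early, over all remnant livers, and over the 9 groups) was kept under the alternatives, with these exceptions. Against normal liver, an unadjusted p gave 1, and leaving out single arrays gave 0 to 1, the 1 being miR-199a-5p at 12 hours after 1/3 PH without replicate 3 (log2 change 0.98, adjusted p = 0.0395), when 1 of the 2 arrays left was m5m at its floor. The 75th percentile over all probes gave 1 between the operations, miR-126 at 6 hours (log2 change -1.32, adjusted p = 0.0451), and 1 over the 9 groups, also miR-126 (adjusted p = 0.0302). That scaling moved the median of all 144 miRNAs in the same 6-hour contrast by -1.32, so miR-126 did not move relative to it. Slide as a fixed block could be fitted in 10 of 18 contrasts. No direction was called for the 90 single changes. Of the values under other settings 185 of 1471 had the opposite sign, and 95 of 2340 without 1 array. Many of these values could not turn. Leaving out an array alters only contrasts that hold its group, and settings that change the test or the filter alone keep the log2 change. These counts thus do not measure how stable the signs were.

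The r of miR-199a-3p and miR-214 was 0.66 with the total gene signal, 0.68 with the deposited log2 values, 0.98 after normexp background correction and 0.80 to 0.87 without single arrays, all past the threshold. The r of miR-199a-3p and miR-199a-5p fell to 0.27 with the total gene signal (adjusted p = 0.308) and that of miR-199a-5p and miR-214 to 0.40 with the deposited log2 values (adjusted p = 0.0799). Relations of miR-143 and miR-126 also depended on the setting. The r of miR-199a-5p and miR-143 was 0.67 without scaling, 0.86 with the 75th percentile over all probes and 0.80 after normexp correction, all past the threshold, and that of miR-214 and miR-143 missed it at 0.35 with quantile normalization, 0.21 with the total gene signal and 0.42 with the deposited values. For miR-126, r with miR-199a-3p was 0.83 without scaling, 0.90 with the 75th percentile over all probes and -0.50 after normexp correction, and r with miR-143 was -0.20 after normexp correction and 0.06 with the deposited values. Without scaling, with the 75th percentile over all probes and after normexp correction, the median of all 144 miRNAs moved too. In single contrasts it reached -0.65, -1.32 and 0.63 in turn. The r of miR-199a-3p and miR-214 under these settings was 0.95, 0.97 and 0.98. A shift shared by the miRNAs of an array can move r, so these values are not stronger evidence than the 0.84 above. The causes were not tested. No paired analysis was possible because the replicate numbers of the operated groups are only accession order and name no shared rat or litter. Signal over background limits miR-199a-5p most and leaves miR-145 unmeasured.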
